A study of Homo sapiens with 3 samples.

Results

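Binding of the HA-PSF-TFE3 fusion was described at 5 genes of the nutrient-sensing arm of mTORC1: *RRAGC*, *RRAGD*, *FLCN*, *FNIP1* and *FNIP2*. Members were the summits of the deposited peak lists that fell in a window around each gene, drawn on hg19 with flanks of about 10 kb. The windows ran from 39294 to 39335 kb on chromosome 1 for *RRAGC*, from 90064 to 90132 kb on chromosome 6 for *RRAGD*, from 17106 to 17150 kb on chromosome 17 for *FLCN*, from 130967 to 131143 kb on chromosome 5 for *FNIP1* and from 159680 to 159838 kb on chromosome 4 for *FNIP2*, 487 kb in all. They held 31 of the 44983 summits of replicate 8 and 19 of the 28084 summits of replicate 9. A summit is the single base of highest enrichment in a peak, and its score is the authors' −log10 q-value.

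The data came from ChIP-seq, which sequences the DNA that a captured protein holds. The cells were HK-2, a human cell line derived from the proximal tubule of the kidney. The fusion joins PSF, also called SFPQ, to the transcription factor TFE3, carries an HA tag for capture by the anti-HA matrix, and was expressed from a doxycycline-inducible construct. All 3 libraries came from such cells after 24 h with 0.2 µg/ml doxycycline. They were 2 ChIP libraries, replicates 8 and 9, which the study describes as independent clones, and 1 library of input DNA that served the authors as background. The design text of the series names PRCC-TFE3 where the title and sample labels name PSF-TFE3, and the labels were followed. No library without doxycycline or without the HA tag was used here, so binding by the fusion could not be set against cells lacking it, and conditions could not be compared. The study states the read depth of each ChIP library. The lists hold no read counts, so the number of reads behind each summit is unknown.

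RagC and RagD, encoded by *RRAGC* and *RRAGD*, are paralogous small GTPases. Each pairs with RagA or RagB on the lysosome to recruit mTORC1 when amino acids are present. Folliculin, encoded by *FLCN* and lost in Birt-Hogg-Dubé syndrome, acts with its partners FNIP1 or FNIP2 as a GTPase-activating protein for RagC and RagD, and so allows mTORC1 to phosphorylate TFEB and TFE3 and to hold them in the cytoplasm. The genes of this circuit are themselves known targets of TFE3 and its relatives, which bind E-box DNA with the core CACGTG or the related CACATG.

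Promoter sequences from RefSeq (GRCh38.p14) were matched for 4 of the 5 members, *RRAGC*, *FLCN*, *FNIP1* and *FNIP2*, the last with 2 annotated starts. They are shown because each gene had summits of both libraries within 3 kb of its estimated start, and they give the 250 bases before each annotated start. Capitals mark the E-box core CACGTG, the related CACATG with its complement CATGTG, and TGACTCA with its complement TGAGTCA, which is the site of AP-1 factors. Sequence at the summits themselves was not read, because the genome at hand is not of the build of the lists.

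*RRAGC*, chr1:38859773-38860022, minus strand: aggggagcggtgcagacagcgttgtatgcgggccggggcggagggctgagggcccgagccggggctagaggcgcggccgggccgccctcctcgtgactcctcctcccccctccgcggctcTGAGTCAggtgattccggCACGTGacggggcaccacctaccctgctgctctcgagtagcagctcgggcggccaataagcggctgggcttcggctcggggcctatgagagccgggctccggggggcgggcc

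*FLCN*, chr17:17237169-17237418, minus strand: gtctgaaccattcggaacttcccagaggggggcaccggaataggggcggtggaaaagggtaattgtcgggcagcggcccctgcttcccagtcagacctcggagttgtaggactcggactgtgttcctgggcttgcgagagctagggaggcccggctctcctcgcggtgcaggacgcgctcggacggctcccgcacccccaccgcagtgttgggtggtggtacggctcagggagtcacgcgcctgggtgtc

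*FNIP1*, chr5:131797018-131797267, minus strand: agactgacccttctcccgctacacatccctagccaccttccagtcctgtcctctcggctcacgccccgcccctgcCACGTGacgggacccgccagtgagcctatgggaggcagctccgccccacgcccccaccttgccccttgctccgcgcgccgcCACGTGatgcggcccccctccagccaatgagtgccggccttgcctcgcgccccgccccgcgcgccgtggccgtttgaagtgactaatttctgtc

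*FNIP2*, first start, chr4:158768776-158769025, plus strand: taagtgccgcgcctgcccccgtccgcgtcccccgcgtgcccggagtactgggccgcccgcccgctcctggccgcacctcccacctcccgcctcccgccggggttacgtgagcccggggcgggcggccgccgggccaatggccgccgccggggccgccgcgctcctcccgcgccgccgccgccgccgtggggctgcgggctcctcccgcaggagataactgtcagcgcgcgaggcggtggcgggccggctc

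*FNIP2*, second start, chr4:158805589-158805838, plus strand: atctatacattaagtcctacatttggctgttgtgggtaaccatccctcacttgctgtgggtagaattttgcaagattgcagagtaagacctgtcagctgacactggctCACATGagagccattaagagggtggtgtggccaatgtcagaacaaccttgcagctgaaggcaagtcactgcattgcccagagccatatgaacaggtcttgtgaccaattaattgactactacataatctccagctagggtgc

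Motifs were searched on both strands from 250 bases before to 50 bases after each start. The *RRAGC* promoter held CACGTG from 112 bases before the start and TGAGTCA from 130 bases before it. Of all 35116 RefSeq promoters of the same length, 7.26% held CACGTG, 4.95% held TGACTCA or TGAGTCA, and 0.302% held both. In *FNIP1*, CACGTG occurred at 2 places, 175 and 94 bases before the start, as in 0.664% of all promoters. The second *FNIP2* start had CACATG 142 bases before it, a motif which with its complement was found in 11.1% of promoters, and TGAGTCA from base 11 after it. Neither the *FLCN* promoter nor the first *FNIP2* promoter contained these letters in this window. The motifs do not overlap one another in these sequences, and a match is a description of the letters and not a measured binding site.

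Summits lay in all 5 windows in both libraries. The windows held a mean of 25 ± 8.5 summits per library (SD, n = 2), or 5.13 ± 1.74 per 100 kb. In replicate 8 the density was 6.37 per 100 kb, where consecutive genome tiles of the length of the *FNIP2* window averaged 1.47, and in replicate 9 it was 3.90, where they averaged 0.918. Each library was thus denser in these windows than over the genome as a whole. How dense gene regions in general are was not analysed here, since no gene annotation of this build was at hand. The order of the genes by density was the same in both libraries. *FNIP2* came first, with 10.8 summits per 100 kb in replicate 8 and 6.96 in replicate 9. *FLCN* followed with 9.09 and 6.82, *RRAGD* with 5.88 and 2.94, *RRAGC* with 4.88 and 2.44, and *FNIP1* came last with 2.27 and 1.14. The ranges of the 2 libraries overlapped between *FNIP2* and *FLCN* and between *RRAGD* and *RRAGC*, and did not overlap between *FLCN* and *RRAGD* or between *RRAGC* and *FNIP1*. The lists differ in length and replicate 8 was denser in every window, so these ranges do not measure replicate error alone. Outside *FNIP2* these densities rest on 1 to 4 summits a window. At *FLCN* they include summits in both flanks, which are assigned to no gene below.

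**Figure D1:**
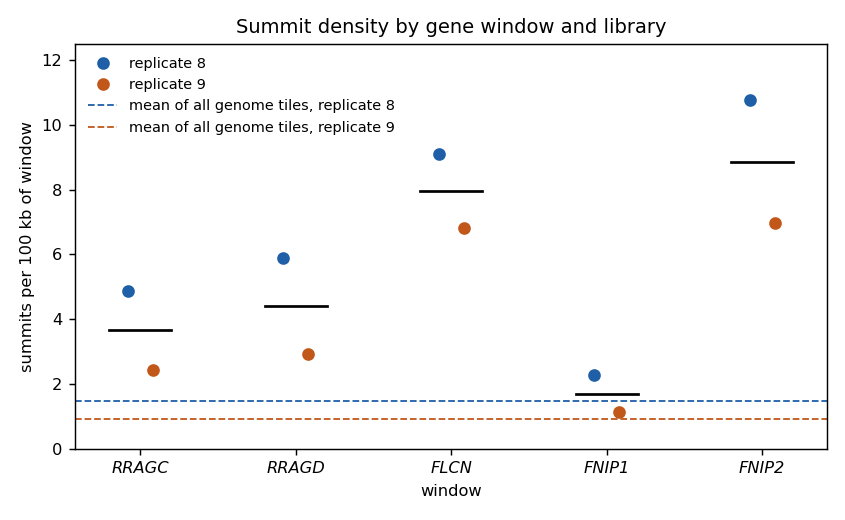
Summits per 100 kb of window (vertical axis) for each gene window (horizontal axis), with 1 point per library, a bar at the mean of both libraries and dashed lines at the mean of all consecutive genome tiles. Replicate 8 sits above replicate 9 in each window, and *FNIP1* sits nearest to the genome means.

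Most of the strong summits recurred between libraries, and how often strong summits recur over the whole lists is not given here. In replicate 8, 16 of 31 member summits were matched by replicate 9 at a distance of at most 200 bp (51.6%, with 34.8 to 68.0% as the 95% Wilson interval), beside 47.9% of the whole list. In replicate 9, 16 of 19 were matched by replicate 8 in the same way (84.2%, with 62.4 to 94.5% as the interval), beside 76.6% of the whole list. Both intervals include the share of the whole list. These intervals reflect counting error alone, and summits that lie close together are not independent. The replicate 8 summits with a partner scored from 6.28 to 53.0 with a median of 29.1, and the 15 without one scored from 2.42 to 8.33 with a median of 4.98. Of those 15, 9 lay at *FNIP2*, 2 each at *RRAGD* and *FNIP1*, and 1 each at *RRAGC* and *FLCN*. In replicate 9 the 3 summits without a partner all lay at *FNIP2* and scored from 2.79 to 6.15. Every replicate 9 summit at the other 4 genes, 8 in all, had a partner.

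A shared pair was found in 19.5% of genome tiles of the length of the *RRAGC* window, in 27.8% for *RRAGD*, in 20.5% for *FLCN*, in 48.1% for *FNIP1* and in 45.6% for *FNIP2*. Here each of the 5 windows had at least 1. The 16 shared pairs, in which each summit is the nearest to the other within 200 bp, were spread over all 5 windows, with 8 at *FNIP2*, 3 at *FLCN*, 2 each at *RRAGD* and *FNIP1*, and 1 at *RRAGC*. Some genome tiles of a window's length held at least as many shared pairs as the window. They made up 1.24% of tiles for *FNIP2*, 2.34% for *FLCN*, 11.4% for *RRAGD*, 19.5% for *RRAGC* and 28.7% for *FNIP1*. Of the 16 pairs, 6 (37.5%) had both summits in the top decile of their own list by score, beside 9.17% of all 21518 shared pairs. Of these 6, 4 lay at *FNIP2*, 1 at *RRAGD* and 1 at *FLCN*, in the flank beyond its 3′ end. Such a pair was held by 8.43%, 3.95% and 2.63% of genome tiles of the length of these windows. *RRAGC* and *FNIP1* held none, beside 2.46% and 9.26% of their genome tiles. Over all member summits the median score was 8.33 in replicate 8, beside 8.20 for its whole list. In replicate 9 it was 21.6, beside 10.5 for its whole list.

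**Figure D2:**
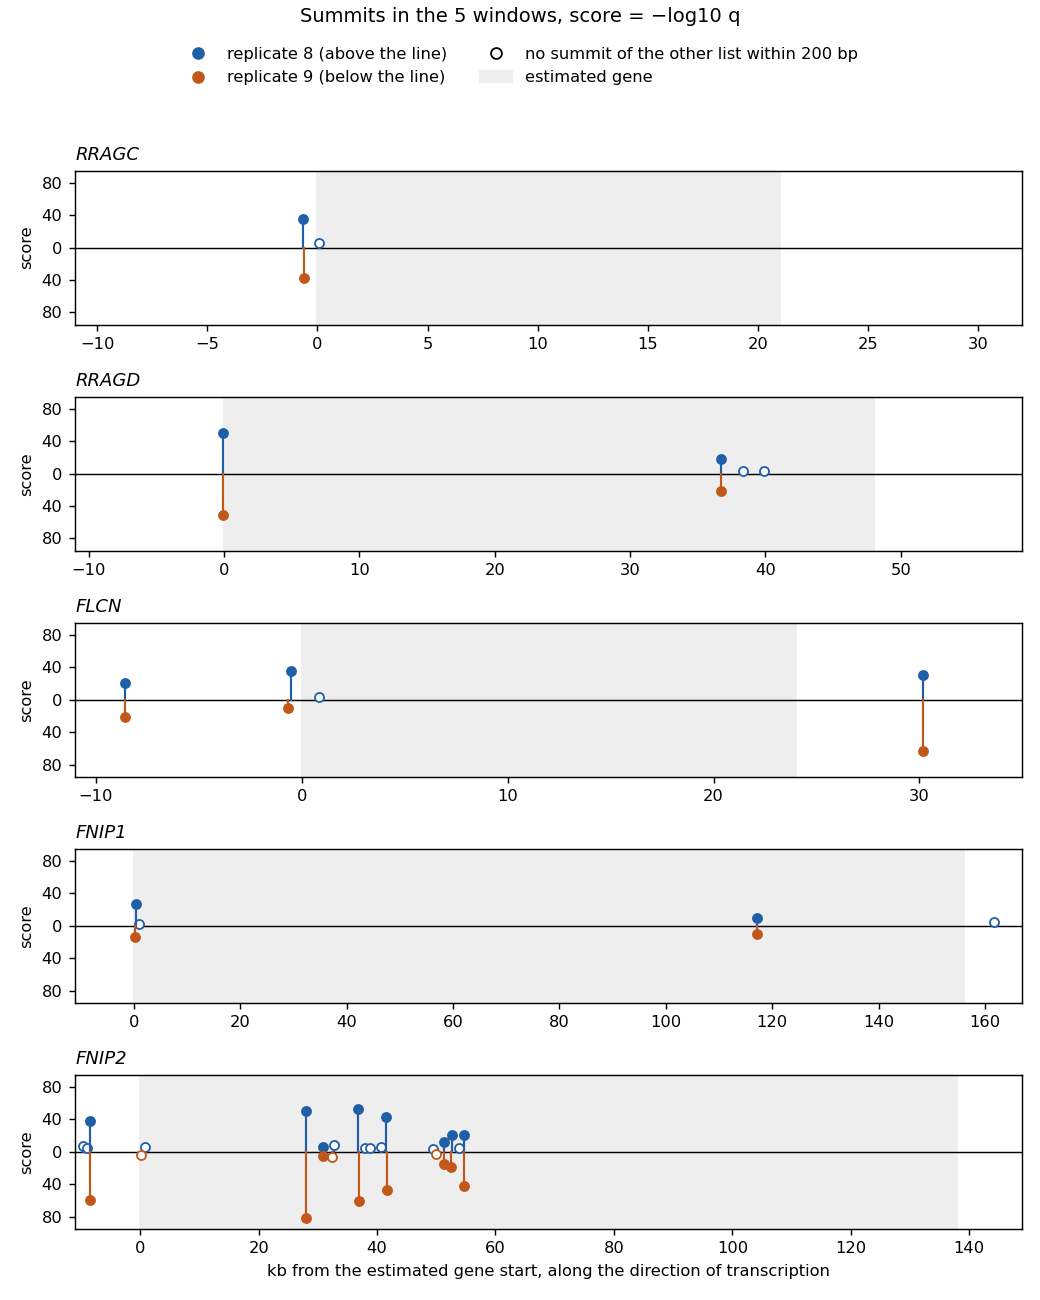
Summits in each window by distance from the estimated gene start in kb (horizontal axis, in the direction of transcription) and score, −log10 q (vertical axis). Replicate 8 is drawn upwards and replicate 9 downwards, open points have no summit of the other list within 200 bp, and grey marks the estimated gene. Shared summits stand at the estimated start in *RRAGC*, *RRAGD*, *FLCN* and *FNIP1*, and from 28.0 to 54.7 kb inside *FNIP2*.

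Position along the genes was measured from an estimated start, taken as the 5′ edge of the window less its 10 kb flank and good to about 1 kb. Within 3 kb of it, 4 of the 5 genes had a shared pair, beside 3.88% of all genome tiles of 6 kb. The count fell to 2, *RRAGC* and *RRAGD*, when summits had to lie within 50 or 100 bp to be shared, as those of *FLCN* and *FNIP1* lay 147 bp apart. That background covers the whole genome, and the share for gene starts in general was not analysed here. Zones of this kind held 26.7 summits per 100 kb in replicate 8 and 16.7 in replicate 9, whereas the rest of the gene bodies held 4.57 and 2.96.

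*RRAGC* had a single shared pair, at the estimated start. The summits lay on chromosome 1 at 39325668 in replicate 8, with a score of 35.9, and at 39325634 in replicate 9, with a score of 37.3. They were 34 bp apart and 0.667 and 0.633 kb upstream of the estimated start. The scores were close, and ranked in the top 4.21% of replicate 8 and the top 10.9% of replicate 9, so that the pair fell just outside the top decile of the latter. Replicate 8 had a further summit 717 bp away, of score 5.29, with no partner.

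*RRAGD* held the highest-scoring start pair of the 5 genes in both libraries. Its summits, on chromosome 6 at 90122075 and 90122053, scored 50.1 and 50.6, in the top 0.898% of replicate 8 and the top 5.48% of replicate 9. Both lay within 0.1 kb of the estimated start. The *RRAGC* start pair scored and ranked lower than that of *RRAGD* in each library. Inside *RRAGD*, 36.7 kb from the estimated start, a second pair at 90085269 and 90085265 lay 4 bp apart and scored 18.5 and 21.6. Replicate 8 had 2 more summits beside it, of scores 3.13 and 3.11, without partners.

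*FLCN* had 3 shared pairs, of which the start pair differed most between libraries. At the start, the replicate 8 summit at 17140541 on chromosome 17 scored 35.4 and ranked in its top 4.37%, whereas the replicate 9 summit at 17140688 scored 10.04 and ranked in its top 51.1%. This gap of 46.7 percentile points is reached by 7.69% of all shared pairs. The summits lay 147 bp apart. The pair in the flank beyond the 3′ end, at 17109821 and 17109827, lay the other way, with scores of 30.8 and 63.7 and ranks in the top 6.77% and the top 2.44%. The pair in the 5′ flank, at 17148582 and 17148579, scored 20.5 and 21.7. In the RefSeq gene order the next coding genes are *PLD6* on the 3′ side and *COPS3* on the 5′ side of *FLCN*. Their bounds on this build were not analysed here, so the flank pairs are assigned to none of the 3 genes.

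*FNIP1* had the lowest scores of the 5 genes at its best pair. Its start pair, on chromosome 5 at 131132559 and 131132706, scored 27.4 and 13.8 and ranked in the top 9.16% of replicate 8 and the top 39.4% of replicate 9, a gap of 30.2 points that 22.7% of all shared pairs reach. A second pair, 117 kb into the gene at 131015792 and 131015933, scored 9.88 and 10.5. Replicate 8 had 2 further summits without partners, 1 of score 2.42 lying 494 bp from the start summit and 1 of score 4.59 in the 3′ flank.

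*FNIP2* was the exception at the start. Replicate 8 had a summit at 159690804 on chromosome 4 with a score of 6.28, and replicate 9 one at 159690160 with a score of 3.81. These lay 644 bp apart and did not count as shared. The strong summits lay inside the gene instead, between 28.0 and 54.7 kb from the estimated start, where all 7 pairs of the gene body were found. The pair at 159718008 and 159718027 scored 50.4 and 81.1, in the top 0.883% and the top 0.709% of the lists, and had the best worst rank of the 16 pairs. A pair at 159726853 and 159726868, 36.9 kb from the estimated start, scored 53.0 and 61.2. RefSeq places the second *FNIP2* start 36.8 kb after the first on GRCh38. The lengths are set side by side only, since the second start was not located on the build of the lists. The next pair, at 159731568 and 159731594, scored 43.6 and 47.1. Of the other 4 pairs in the gene body, the one at 159744607 and 159744660 scored 21.3 and 42.4 and missed the top decile in replicate 8 alone. The remaining 3 scored from 6.28 to 20.9 in replicate 8 and from 5.22 to 18.7 in replicate 9. A strong pair also lay 8.47 kb upstream of the estimated start, at 159681529 and 159681532, with scores of 37.8 and 60.0. The next gene on that side in the RefSeq order is *PPID*, whose bounds on this build were not analysed here.

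The summits inside *FNIP2* formed a run, in which no gap exceeded 10 kb, of 13 summits over 26.6 kb in replicate 8 and of 9 summits over 26.6 kb in replicate 9. Runs of at least this many summits made up 0.122% of the 26166 runs of replicate 8 and 0.203% of the 19178 runs of replicate 9. After the last summit of the run, neither library had another in the remaining 93.4 kb (replicate 8) and 93.3 kb (replicate 9) of the window. Of all member summits, 17 in replicate 8 (54.8%) and 11 in replicate 9 (57.9%) lay at *FNIP2*, which made up 32.4% of the length of the windows. Its paralog *FNIP1*, with a window of 176 kb against 158 kb, held 4 and 2. *FNIP2* was 4.73 times as dense as *FNIP1* in replicate 8 and 6.13 times in replicate 9. *RRAGD* was 1.21 times as dense as *RRAGC* in each library, on counts of 4 against 2 and 2 against 1, and the ranges of the libraries overlapped.

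**Figure D3:**
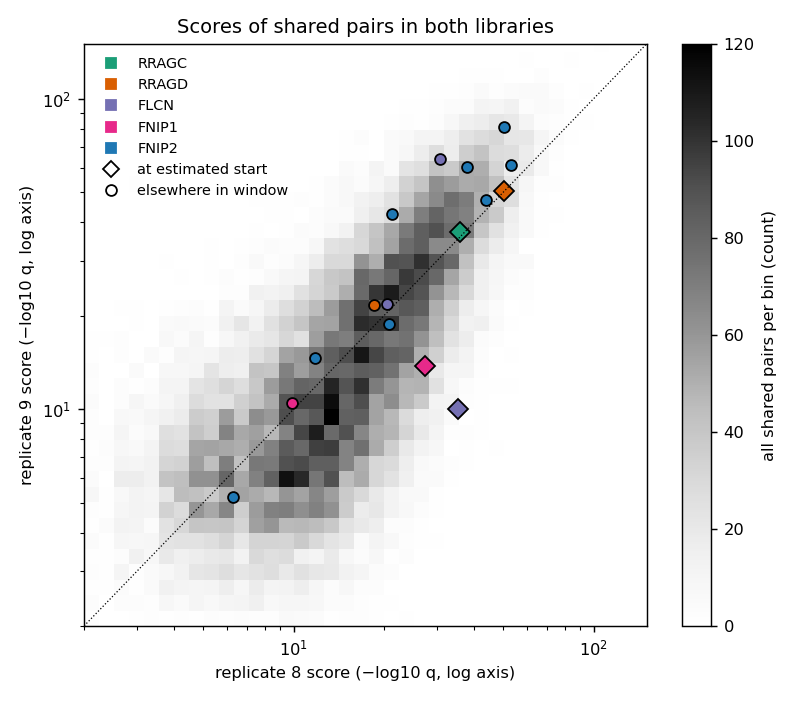
Score, −log10 q, of shared pairs in replicate 8 (horizontal axis) and replicate 9 (vertical axis), both log axes. Grey shades count all shared pairs per bin, coloured points are the 16 member pairs, diamonds are pairs at the estimated start, and the dotted line marks equal scores. The start pairs of *FLCN* and *FNIP1* sit below the line, at 35.4 against 10.04 and 27.4 against 13.8.

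Scores are not normalised between libraries, and strong pairs in general scored higher in replicate 9. That held for 90.5% of all 1973 pairs in the top decile of both lists, and for 6 of the 6 member pairs among them. Over all shared pairs it held for 46.5%, and over the 16 member pairs for 12. The 4 member pairs that scored higher in replicate 8 were the start pairs of *FLCN* and *FNIP1* and 2 of the weaker pairs inside *FNIP2*.

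The libraries placed most shared pairs close to each other. The median distance within the 16 pairs was 24 bp, with a range from 2 to 147 bp, beside 52 bp over all shared pairs. In the 6 pairs of the top decile it was 17 bp, beside 36 bp over all 1973 such pairs. At the start of *FLCN* and at the start of *FNIP1* the replicate 9 summit lay 147 bp upstream of that of replicate 8 in the direction of transcription, and in the *FNIP1* gene body it lay 141 bp upstream. Distances of 147 bp or more were found in 9.40% of all shared pairs. At the starts of *RRAGC* and *RRAGD* the replicate 9 summit lay 34 and 22 bp downstream.

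**Figure D4:**
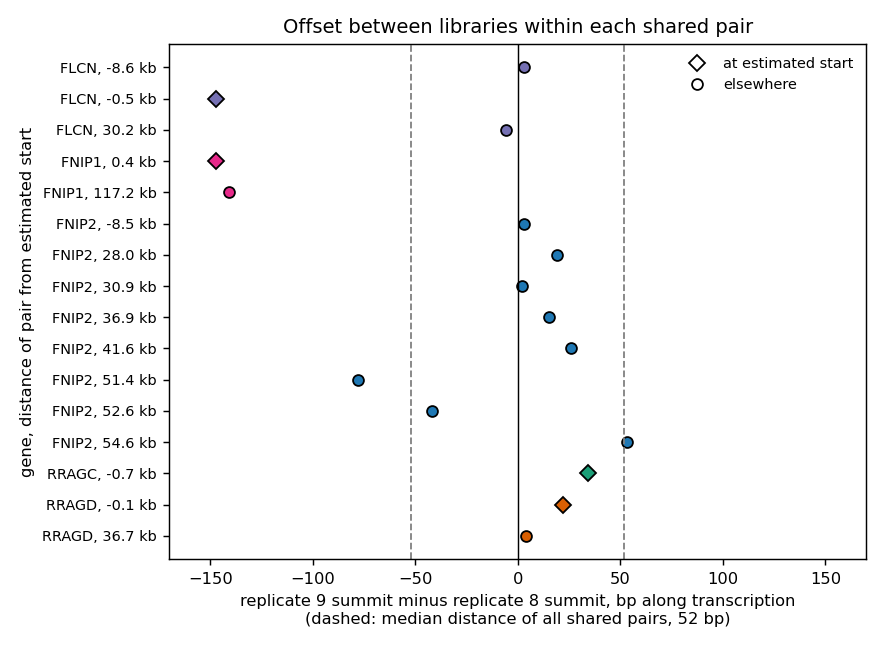
Offset of the replicate 9 summit from the replicate 8 summit in bp along the direction of transcription (horizontal axis) for each of the 16 shared pairs (vertical axis, gene and distance from the estimated start). Diamonds are pairs at the estimated start, and dashed lines mark the median distance of all shared pairs, 52 bp. The 2 *FNIP1* pairs and the *FLCN* start pair lie between 141 and 147 bp upstream.

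The nearest summits outside the windows lay from 2.89 to 258 kb beyond the edge in replicate 8. In replicate 9 they lay from 22.8 to 1294 kb beyond it. Scores of these outside summits ran from 3.83 to 12.4 in replicate 8 and from 4.06 to 23.5 in replicate 9. Just inside the edge, the closest was the replicate 8 summit at 159680251, 0.25 kb from the *FNIP2* edge, with a score of 6.68 and no partner. At *FLCN* the 5′ flank pair lay 1.42 kb inside the edge in both libraries.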

How the data were processed

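Chromatin of HK-2 cells was digested with an enzymatic kit and HA-PSF-TFE3 was captured on an anti-HA matrix. The authors ran MACS2 on each ChIP library with input DNA as control, without pooling. The deposited scores are the authors' −log10 q-values of 1 bp summits. The labels name hg19. The study states a p-value cutoff in 1 place and a q-value cutoff in another, and the lowest deposited scores, 1.37 and 1.33, both lie just above 1.30, the −log10 of a q-value of 0.05. On hg38, 364 summits of replicate 8 and 262 of replicate 9 would fall past a chromosome end, so hg19 was used and no coordinate was converted. Positions are counted from 1.

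Summits were shared if the other list had one within 200 bp, and mutually nearest ones were paired. Ranks were taken by score within each list. Shares have 95% Wilson intervals. Genome tiles were consecutive windows from the first base to the last summit of each chromosome, gaps included. Strand came from GENCODE and promoters and gene order from RefSeq. Named for each gene were the pair with the best worst rank, the start pair, further top-decile pairs, unpaired summits and the summits nearest each edge. The windows and lists were chosen with earlier results of these data known. Other pathway genes were not analysed here, as no hg19 annotation was at hand. Distance functions were tested on simulated lists. The alternatives tried were other distances, minimum scores, merged summits, equal list lengths, trimmed flanks, other zones and each library alone. Replicates 8 and 9 are separate clones by the study's account. Calculations ran in numpy 2.4.6 and pandas 2.3.3 under Python 3.11.15, with intervals from scipy 1.17.1 and plots from matplotlib 3.10.9.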

Additional observations from a re-analysis of the deposited data

How the results depend on the processing

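Of 57 recalculations, 45 kept their value within the spread, or their count within 1.5 times, and 12 moved. The 45 include those on each library alone, which could not move, since either of 2 libraries always lies within their SD of the mean. Sizeable falls also counted as kept. Genes with a top-decile pair fell from 3 to 2 with equal numbers of summits and with flanks trimmed to 5 kb. Within 50 bp the shared part of replicate 8 fell from 51.6% to 35.5%. With equal numbers of summits the mean count of member summits fell from 25 to 19. A minimum score of 10 lowered the mean number of member summits to 14.5 and their density to 2.98 per 100 kb. It left 1 gene in place of 3 with a top-decile pair, deciles being taken anew. The mean of the library medians of score went from 15.0 to 35.2, and a minimum score can never lower a median. The shared part of replicate 8 became 100%. The shared part of replicate 8 was 69.6% with a minimum score of 5 and 84.2% with equal numbers of summits. Within 50 bp the shared part of replicate 9 was 57.9%, and within 50 or 100 bp the genes with a shared start pair were 2, *RRAGC* and *RRAGD*, since the *FLCN* and *FNIP1* summits lay 147 bp apart. Within 1000 bp *FNIP2* joined them, making 5. The distances of 100 and 1000 bp were chosen after seeing the data. The shares of the whole lists under the alternative settings are not given here, so these shared parts have no background beside them. With flanks removed, or with the top 5% in place of the decile, 1 gene kept a top-decile pair, *FNIP2*. Removing the flanks dropped the *RRAGD* start pair, which lay 0.074 and 0.052 kb upstream of the estimated start. As that start is good to about 1 kb, this does not place the pair outside the gene. Each library alone gave 19 to 31 member summits and 3.90 to 6.37 per 100 kb. Median scores were 8.33 in replicate 8 and 21.6 in replicate 9, beside 8.20 and 10.5 over the whole lists. No paired analysis was possible because there is 1 group. The reads behind each summit are not in the lists, so a gene region without a listed summit is one where none reached the calling threshold, and weaker binding there is not measured.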
